A study of Mus musculus with 39 samples.

Results

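The 36 genes described here are interferon-stimulated genes, the genes that cells switch on when type I interferon binds its receptor. They were taken as a fixed list of symbols, and each of the 36 matched 1 Ensembl row of a table of 43430 rows. RNA had been sequenced in 39 libraries of 8 groups, all of flow-sorted lung cells of C57BL/6J mice. Monocytes came from naive mice. Macrophages came from mice exposed to bleomycin, which damages the alveolar lining and leaves scar tissue. The macrophages were monocyte-derived alveolar macrophages gated as low for Siglec F, a surface protein of resident alveolar macrophages. Animals of both cell types were either young or old, and each had been treated with saline or with ISRIB. This compound counters the integrated stress response by keeping the initiation factor eIF2B active when its partner eIF2 is phosphorylated.

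The groups were young saline, young ISRIB, old saline and old ISRIB, for each kind of cell, with 5 libraries in every group except young ISRIB macrophages, which had 4. Sample labels put the young mice at 8 to 12 weeks and the old mice at over 18 months. By the design description instead, young mice were 3 to 5 and old mice 18 to 24 months of age. Per the same description, ISRIB was injected daily from day 7 after bleomycin and cells were taken on day 21. No timing was given for the naive mice. All monocyte groups were without bleomycin and all macrophage groups had received it, so that in any comparison of macrophages with monocytes the cell type and the injury cannot be told apart. Nothing in the labels says whether the libraries of a group came from separate animals, so p-values measure the spread between these libraries only.

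Type I interferons are made when a cell's sensors meet foreign or misplaced nucleic acid. They signal through IFNAR1 and IFNAR2 to the kinases JAK1 and TYK2, and then to a complex with STAT2 and IRF9 that binds interferon-stimulated response elements in the promoters of the genes described here. The products block viral entry, translation and replication, and they include sensors and factors that feed back on the pathway. In macrophages and monocytes many of them are also expressed at a lower, tonic level without infection.

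The response element is built from GAAA repeats, so the 250 bases before each RefSeq start (GRCm38.p6) were searched for GAAANNGAAA on the transcribed strand or, for the other strand, TTTCNNTTTC. Overlapping matches were merged. A window was at hand for 27 of the 36 members, and 11 of them (40.7%) held the motif. Of all 27025 genes with a window in the promoter reference, 936 (3.46%) held it. The motif was present for 5 of 10 antiviral effectors, 3 of 5 oligoadenylate synthetases, 1 of 3 transcription factors, 1 of 2 genes of the ubiquitin and ADP-ribose group, 1 of 2 of the remaining group and 0 of 5 sensors with a window. The nearest match lay 12 to 222 bases before the start, with a median of 85. A match describes letters in this window and is not evidence of binding. No match lay in the windows of Ifitm3, Irf7, Irf9 and Ifi35. The 180 bases before the start are shown for 7 of the 11 members with a match. They are read along the transcribed strand, with the motif in capitals. Isg15, Ifit3 and Rsad2 are shown as widely used reporters of the response, Bst2 as the member with the smallest p-value for ISRIB in macrophages, Oas1a and Oas1g as neighbouring copies whose capitalised stretches are alike and whose RNA levels were not, and Trim30a as a window with a single match.
Isg15 (chr4:156200819-156200998, minus strand): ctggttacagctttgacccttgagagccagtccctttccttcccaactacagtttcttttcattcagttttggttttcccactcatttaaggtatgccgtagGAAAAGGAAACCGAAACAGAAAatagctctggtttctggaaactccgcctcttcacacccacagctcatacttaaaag
Ifit3 (chr19:34583349-34583528, plus strand): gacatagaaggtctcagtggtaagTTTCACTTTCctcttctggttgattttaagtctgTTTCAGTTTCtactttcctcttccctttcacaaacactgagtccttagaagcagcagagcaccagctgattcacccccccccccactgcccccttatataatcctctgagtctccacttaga
Rsad2 (chr12:26456453-26456632, minus strand): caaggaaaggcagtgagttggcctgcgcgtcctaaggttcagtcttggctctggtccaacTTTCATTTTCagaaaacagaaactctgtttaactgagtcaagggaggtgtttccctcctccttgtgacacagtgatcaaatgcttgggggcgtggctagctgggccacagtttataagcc
Bst2 (chr8:71537473-71537652, minus strand): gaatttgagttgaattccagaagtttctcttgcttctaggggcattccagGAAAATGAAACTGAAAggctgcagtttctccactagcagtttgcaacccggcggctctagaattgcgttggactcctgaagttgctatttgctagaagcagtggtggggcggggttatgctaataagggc
Oas1a (chr5:120907526-120907705, minus strand): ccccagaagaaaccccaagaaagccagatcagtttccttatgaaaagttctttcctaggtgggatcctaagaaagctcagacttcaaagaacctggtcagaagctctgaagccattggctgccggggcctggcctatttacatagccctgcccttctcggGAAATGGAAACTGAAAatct
Oas1g (chr5:120887614-120887793, minus strand): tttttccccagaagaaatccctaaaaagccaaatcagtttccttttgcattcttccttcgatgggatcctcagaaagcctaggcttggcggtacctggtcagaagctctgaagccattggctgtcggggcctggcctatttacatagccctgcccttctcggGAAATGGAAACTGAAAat
Trim30a (chr7:104465194-104465373, minus strand): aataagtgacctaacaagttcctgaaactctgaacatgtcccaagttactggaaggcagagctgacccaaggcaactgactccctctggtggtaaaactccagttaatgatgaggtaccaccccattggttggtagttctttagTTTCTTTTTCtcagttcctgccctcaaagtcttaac

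Several members are neighbours in the genome. Ifit1, Ifit2 and Ifit3 lie within chr19:34550694-34650009, Oas1a, Oas1g, Oas2 and Oas3 within chr5:120730333-120907521, Oasl1 and Oasl2 within chr5:114896936-114937915, Mx1 and Mx2 on chromosome 16, and Cmpk2 and Rsad2 next to each other on chromosome 12 (GRCm38). Close relatives can share reads: Oas1a with Oas1g, Ifit3 with its copy Ifit3b, Ifi204 with other members of its family and Trim30a with other Trim30 genes are uncertain for that reason. Exons of 12 members overlap those of other genes. The longest shared parts were 16.8% of the exonic length of Adar (with Chrnb2) and of Ifi35 (with the antisense gene Gm11626), 13.9% of Rtp4 and 13.7% of Herc6. Whether counting used strand is not given in the sources used here, so reads cannot be told apart for the opposite-strand pairs of Adar and Ifi35. The overlapping genes of Rtp4 and Herc6 lie on the same strand, where strand would not separate the reads.

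Library totals ran from 4595331 to 16056708 counts (median 8628240), with 12324 to 17313 genes detected. Values per library are CPM, the counts scaled to a common total across libraries. In the macrophage groups Siglecf averaged from 51.4 ± 4.49 CPM (young saline; SD, n = 5) up to 126 ± 21 CPM (old ISRIB; SD, n = 5), and stayed under 1 CPM on average in every monocyte group. Ly6c2, a marker of classical monocytes, averaged at least 387 CPM in monocytes and at most 3.07 CPM in macrophages. The list of 8 classical monocyte genes that holds Ly6c2 did not separate the cell types as a whole. Its summed level had medians of 17690 CPM in young saline macrophages and 14947 CPM in young saline monocytes. In the old saline groups the medians were 14720.5 CPM in macrophages and 17969 CPM in monocytes. Genes were tested with edgeR's quasi-likelihood test, and a gene was called when its p-value, adjusted over all genes tested by the Benjamini-Hochberg method, was under 0.05. Each change is a log2 fold change, printed with its standard error (SE).

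In saline-treated mice the interferon-stimulated genes were lower in macrophages than in monocytes. Of the 36 members, 33 fell and 0 rose when the saline groups were compared over both ages. Among all 13587 genes tested, 70% were called and 34.2% were called lower, so calls were common in this comparison. The median over the members was -1.72 on the log2 scale, a level 0.303 times that of monocytes, and the median over all genes was -0.00. In 23 members every macrophage library lay below every monocyte library, a separation seen in 12.1% of genes.

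The direct antiviral effectors held the widest range of differences. Ifitm3, which blocks fusion of viruses with endosomal membranes, was 81.9-fold lower in macrophages, with a log2 fold change of -6.36 ± 0.17 (SE; adjusted p = 2.22e-29). Its young saline macrophage libraries gave 15.2, 16.4, 8.6, 17.6 and 9.65 CPM, and its young saline monocyte libraries 1229, 1205, 1223, 1965 and 1022 CPM. Old saline libraries gave 20.9, 16.4, 11.8, 14.9 and 11.7 CPM in macrophages and 1188, 1205, 1116, 1112 and 1152 CPM in monocytes, so the cell types were far apart at both ages. Its relatives Ifitm2 and Ifitm6, outside the set, also fell, with log2 fold changes of -2.74 ± 0.10 and -9.79 ± 0.26 (SE). Mx1, a dynamin-like GTPase for which inbred strains such as C57BL/6J carry a defective allele, fell, at -3.36 ± 0.23 (SE; adjusted p = 3.56e-16). It was measured at 13.5, 10.9, 14, 12.9 and 9.28 CPM in young saline macrophages and 83.9, 157, 155, 145 and 142 CPM in young saline monocytes. Old saline macrophages had 15.7, 11.1, 3.01, 14.9 and 6.72 CPM and old saline monocytes 169.6, 133, 62.5, 62.6 and 114 CPM, without overlap. Mx2 (-3.50 ± 0.29), the exonuclease gene Isg20 (-2.94 ± 0.26), Cmpk2, a nucleotide kinase gene next to Rsad2 (-2.88 ± 0.22), Rsad2 itself, which encodes viperin (-1.90 ± 0.29), and Isg15, the ubiquitin-like modifier (-1.71 ± 0.28), fell as well. The Ifit genes, whose proteins bind viral RNA, fell as well: -1.73 ± 0.33 for Ifit3, -1.12 ± 0.28 for Ifit1 and -0.85 ± 0.30 (SE; adjusted p = 0.0128) for Ifit2.

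Bst2 and Ifi44 were the effectors that were not called. Bst2, or tetherin, holds budding virus particles at the cell surface. Its libraries gave 57.2, 92.4, 76.8, 91.1 and 74.7 CPM in young saline macrophages and 65, 84.3, 84.3, 123 and 48.5 CPM in young saline monocytes, overlapping ranges, and the log2 fold change was 0.20 ± 0.15 (SE; adjusted p = 0.226). Ifi44 was near the limit of detection, in young saline macrophages at 2.61 ± 1.53 CPM and in young saline monocytes at 2.66 ± 1.07 CPM (SD, n = 5 each). Its log2 fold change was -0.22 ± 0.56 (SE; adjusted p = 0.731). In all, 10 of 12 effectors fell, with a median of -1.82.

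Among the oligoadenylate synthetases, which answer double-stranded RNA by making the activator of RNase L, 5 of 6 fell (median -1.74). Oas2 fell, at -2.91 ± 0.25, Oas3 at -2.89 ± 0.25, the related Oasl2 at -2.21 ± 0.24 and Oasl1, a repressor of Irf7 translation, at -1.27 ± 0.32. Oas1a was called and Oas1g was not, and their printed promoter windows carry the same capitalised stretch. Oas1a gave 30.5, 33, 26.5, 38.5 and 30.4 CPM in young saline macrophages and 79.9, 93, 90.4, 112 and 55.6 CPM in young saline monocytes, and fell, at -1.06 ± 0.18 (SE; adjusted p = 2.03e-06). Oas1g gave 9.23, 9.18, 4.78, 9.58 and 9.34 CPM and 7.06, 14.2, 8.8, 8.49 and 3.62 CPM in the same groups and was not called, at 0.10 ± 0.35 (SE; adjusted p = 0.804). With the old saline libraries included, the cell types overlapped for Oas1a as well as for Oas1g. The difference between these copies was not tested, and their reads may be partly shared.

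All 3 transcription factors of the response fell. Irf7, the factor that amplifies interferon production, had the largest change of them, -3.21 ± 0.23 (SE; adjusted p = 1.69e-15). Young saline macrophages had 20.4, 20.04, 30.9, 35.4 and 22.9 CPM and young saline monocytes 237, 308, 333, 397 and 166 CPM. Old saline macrophages had 34.1, 43.3, 8.93, 40.4 and 13.3 CPM and old saline monocytes 324, 267, 160.0, 224 and 256 CPM, so the macrophage libraries were all lower. Irf9, the DNA-binding subunit of the complex with STAT2, gave 46.5, 47.1, 51.4, 50.8 and 56.6 CPM in young saline macrophages and 133, 166, 165, 163 and 162 CPM in young saline monocytes, and 48.2, 52.7, 29, 49.6 and 29.3 CPM and 145, 165, 144, 158 and 132 CPM in the old saline groups. It fell, at -1.65 ± 0.11 (SE; adjusted p = 9.53e-17), again with no overlap. Stat2, the gene of that partner, fell, at -1.25 ± 0.16 with overlapping libraries.

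All 8 sensors and their partners fell, with a median of -1.09. Zbp1, which recognises Z-form nucleic acid and can start necroptosis, gave 21.1, 22.6, 17.8, 19.7 and 20.7 CPM in young saline macrophages and 137, 148, 158, 195 and 114 CPM in young saline monocytes. In the old saline groups it gave 19, 28.3, 13.9, 32.6 and 12.3 CPM and 209, 169.9, 107, 138 and 140.4 CPM, and the change was -2.77 ± 0.17 (SE; adjusted p = 4.96e-18). Ifi204, a DNA-binding relative of human IFI16, was at 82.4, 70.9, 66.8, 91.3 and 60.6 CPM in young saline macrophages and 365, 374, 423, 513 and 344 CPM in young saline monocytes. The old saline groups stood at 87.2, 73.9, 31, 76.9 and 45.6 CPM and 415, 467, 344, 359.6 and 332 CPM, for a change of -2.43 ± 0.14 (SE; adjusted p = 3.66e-18). Libraries of the cell types did not overlap for either gene. Dhx58, which encodes the regulator LGP2 of the RIG-I family, was at 24.9, 28.2, 31.7, 31.1 and 23.4 CPM and 97.8, 118, 112, 113 and 70.3 CPM in the young saline groups and at 25.1, 30.9, 24.5, 30.9 and 17.8 CPM and 125, 113, 76.2, 77.3 and 91.2 CPM in the old saline groups, macrophages first, and fell, at -1.80 ± 0.11 (SE; adjusted p = 2.58e-17). The RNA sensors RIG-I (Ddx58, -0.92 ± 0.12) and MDA5 (Ifih1, -0.81 ± 0.12), the RNA-editing enzyme gene Adar (-0.90 ± 0.09) and Ifi35 (-1.11 ± 0.10) changed less. Eif2ak2 encodes PKR, which is both an antiviral kinase and a kinase of the integrated stress response that ISRIB acts against. It fell, at -1.06 ± 0.10 (SE; adjusted p = 9.1e-12), from 95.6, 143, 134, 152 and 129 CPM in young saline monocytes to 58.8, 50.4, 77.3, 44.8 and 61.7 CPM in young saline macrophages.

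The 4 genes of the ubiquitin and ADP-ribose group fell (median -1.66). Parp14, an ADP-ribosyltransferase, gave 88.5, 95.4, 92.3, 95.9 and 103 CPM and 363, 418, 416, 302 and 294 CPM in young saline macrophages and monocytes, and 98.4, 98.9, 70.2, 121 and 100.4 CPM and 370.4, 352, 267, 349.8 and 300.1 CPM in the old saline groups, with a change of -1.74 ± 0.11 (SE; adjusted p = 2.8e-17). Every macrophage library was below every monocyte library. Usp18, the protease that removes ISG15 and restrains the receptor, fell, at -2.32 ± 0.24, the ubiquitin ligase gene Trim30a at -1.58 ± 0.11 and Herc6, the main ISG15 ligase of the mouse, at -1.08 ± 0.12. Of the remaining members, the chemokine gene Cxcl10 fell, at -1.26 ± 0.33, the chaperone gene Rtp4 at -1.77 ± 0.29 and the apoptosis-related Xaf1 at -2.65 ± 0.21.

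**Figure D1:**
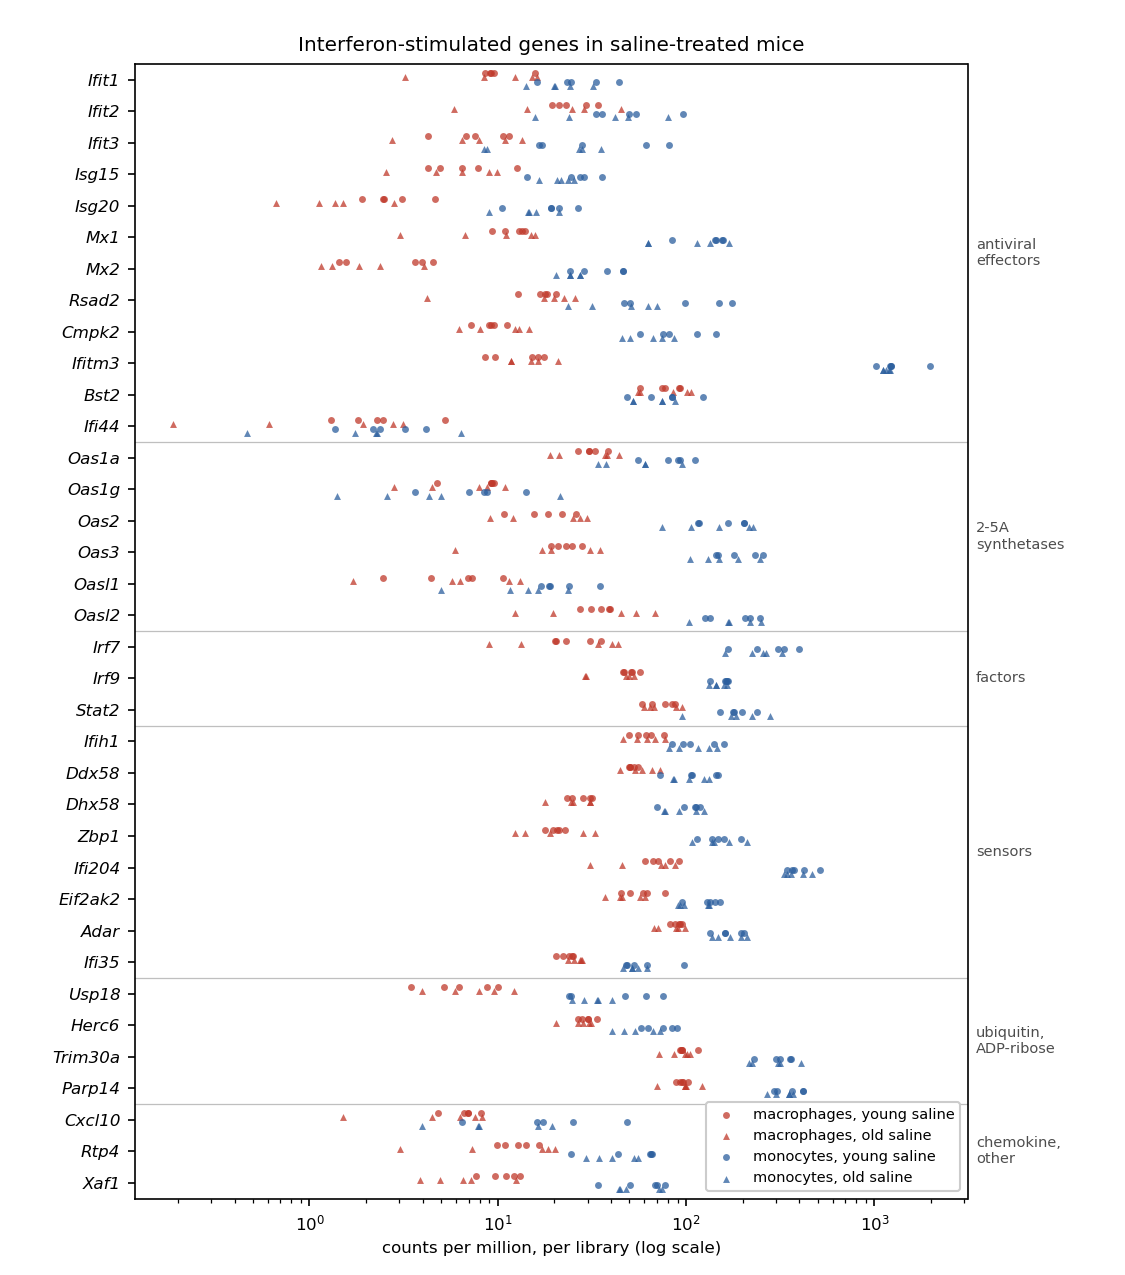
Level in CPM on a log axis for each of the 36 genes in the saline groups. Each point is 1 library, red for macrophages and blue for monocytes, circles for young and triangles for old. Ifitm3 has the widest separation, while Bst2, Ifi44 and Oas1g overlap over most of their range.

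The count of 33 was the same with young saline mice alone (median -1.83) and with the ISRIB groups in place of the saline groups (median -1.95). With old saline mice alone 29 fell (median -1.54), and Ifit1, Ifit2, Oasl1 and Cxcl10 were no longer called. Of all 13587 genes, 8146 were called in either direction with young saline mice alone and 7739 with old saline mice alone. With the ISRIB groups 9506 were called. These alternatives were added after the data had been seen. In bulk RNA, fewer cells of a type and less RNA per cell cannot be told apart. Marker sums of other cells differed between the cell types: 8 genes of nonclassical monocytes summed to a median of 618 CPM in young saline macrophages and 4618 CPM in young saline monocytes, and 10 neutrophil genes to 96.2 and 598 CPM. Their part in the result was not tested.

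Per kilobase of exon, which allows levels of different genes to be set side by side, the order of the members also differed. In young saline monocytes the highest levels were 1959.9 CPM per kilobase for Ifitm3, 113 for Ifi204, 89.7 for Bst2, 76.3 for Irf7 and 76.2 for Trim30a. In young saline macrophages Bst2 came first at 86.9 CPM per kilobase, followed by Trim30a at 23.9, Ifi204 at 20.9, Ifitm3 at 19.9 and Oas1a at 16.9. Ifi44 was last in both, at 0.426 CPM per kilobase in macrophages.

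Transcripts of interferons themselves were almost absent. Of 21 interferon genes, 16 had 0 counts in all 39 libraries, Ifnb1 and most Ifna genes among them. A count of 0 allows up to 3 counts, which is 0.187 to 0.653 CPM depending on the library, and such limits cover counting error only. The other interferon genes together held 1 count (Ifna7), 2 (Ifnab), 4 (Ifnz), 112 (Ifng) and 190 (Ifnk) over all libraries. Ifng, made mainly by T and NK cells, had 0 counts in both young macrophage groups.

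The receptor chain and its kinases followed the same direction as the members between cell types. Over all 13587 genes tested, 4642 (34.2%) were called lower in macrophages and 4869 higher. Of 10 genes of receptors and signalling, 9 were called lower in macrophages, with a median of -0.85. Ifnar1 fell, at -1.21 ± 0.08, with young saline monocytes at 198 ± 13.4 CPM and young saline macrophages at 80.2 ± 7.66 CPM (SD, n = 5 each). Ifnar2 fell, at -0.996 ± 0.07, the interferon gamma receptor gene Ifngr1 at -1.84 ± 0.07, Tyk2 at -0.80 ± 0.07 and Jak1 at -0.28 ± 0.06. Socs1, an inhibitor of the kinases, was not called (-0.36 ± 0.31 (SE; adjusted p = 0.291)). Of 14 tested genes of other sensors and activators, 9 fell and 2 rose. Irf5 (-1.79 ± 0.08) and the endosomal receptor genes Tlr9 (-2.80 ± 0.17) and Tlr7 (-0.99 ± 0.09) were among those that fell. Tlr3, a receptor for double-stranded RNA, rose by 3.19 ± 0.23, and the adaptor gene Mavs by 1.24 ± 0.13. Of 71 tested genes on a wider list of interferon-stimulated genes, 59 fell and 6 rose (median -1.38). Those that rose included Ifi27 (1.74 ± 0.11) and Cd274, the gene of PD-L1 (3.67 ± 0.28). Of 17 tested genes that answer mainly to interferon gamma, 13 fell and 2 rose (median -1.24).

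Members varied together from library to library. With each member expressed as the log2 difference from its mean over all libraries of the cell type, the mean over the 36 members was 0.28 ± 0.07 for young saline macrophages (SD, n = 5). Young ISRIB macrophages had -0.21 ± 0.51 (SD, n = 4), old saline macrophages 0.15 ± 0.60 and old ISRIB macrophages -0.26 ± 0.40 (SD, n = 5 each). The spread of the young saline macrophages was therefore the smallest, with libraries from 0.16 to 0.34, while old saline libraries ran from -0.77 to 0.60. Young ISRIB libraries ran from -0.90 to 0.31 and old ISRIB libraries from -0.81 to 0.27, so all 4 groups overlapped. Monocyte groups had 0.27 ± 0.34 for young saline, 0.04 ± 0.33 for young ISRIB, -0.08 ± 0.39 for old saline and -0.23 ± 0.37 for old ISRIB (SD, n = 5 each). These overlapped as well.

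**Figure D2:**
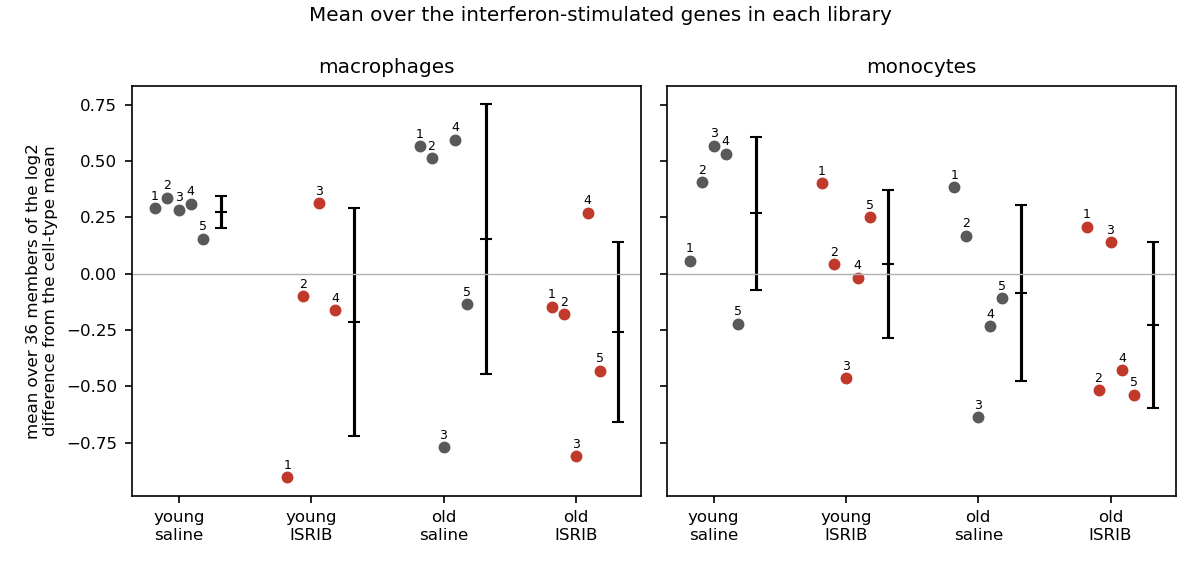
Mean over the 36 genes of the log2 difference from the mean of the cell type, for each library (points, numbered by replicate; grey saline, red ISRIB), with the mean and SD of each group as a bar. Young saline macrophages lie between 0.16 and 0.34 and the other groups spread more widely.

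Single libraries held most members low or high at once. Replicate 3 of old saline macrophages was below its group's mean for 34 of 36 members, replicate 3 of old ISRIB macrophages for 34 and replicate 1 of young ISRIB macrophages for 33. In monocytes, replicate 3 of young ISRIB and replicate 3 of old saline were each below the group mean for all 36. Other libraries were high to a like extent: replicate 4 of old ISRIB and replicate 2 of old saline macrophages lay above the group mean for 34 members each, replicate 3 of young ISRIB macrophages for 33, and replicate 1 of young ISRIB and replicates 1 and 3 of old ISRIB monocytes for 35 each. The deviations of 2 members within groups correlated with a median Pearson's r of 0.594 over 630 pairs in 19 macrophage libraries and 0.602 in 20 monocyte libraries. This is a description over libraries that share depth and sorting. The same values were not computed for other genes, so the shared movement is not shown to be particular to these members. Oas3 (median r of 0.73 with the other members), Ifi204 (0.72) and Irf9 (0.71) moved most with the rest in macrophages, and Ifi35 (-0.12) and Isg20 (-0.17) did not. Because members moved together, counts of members with the same sign are not counts of independent observations.

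**Figure D3:**
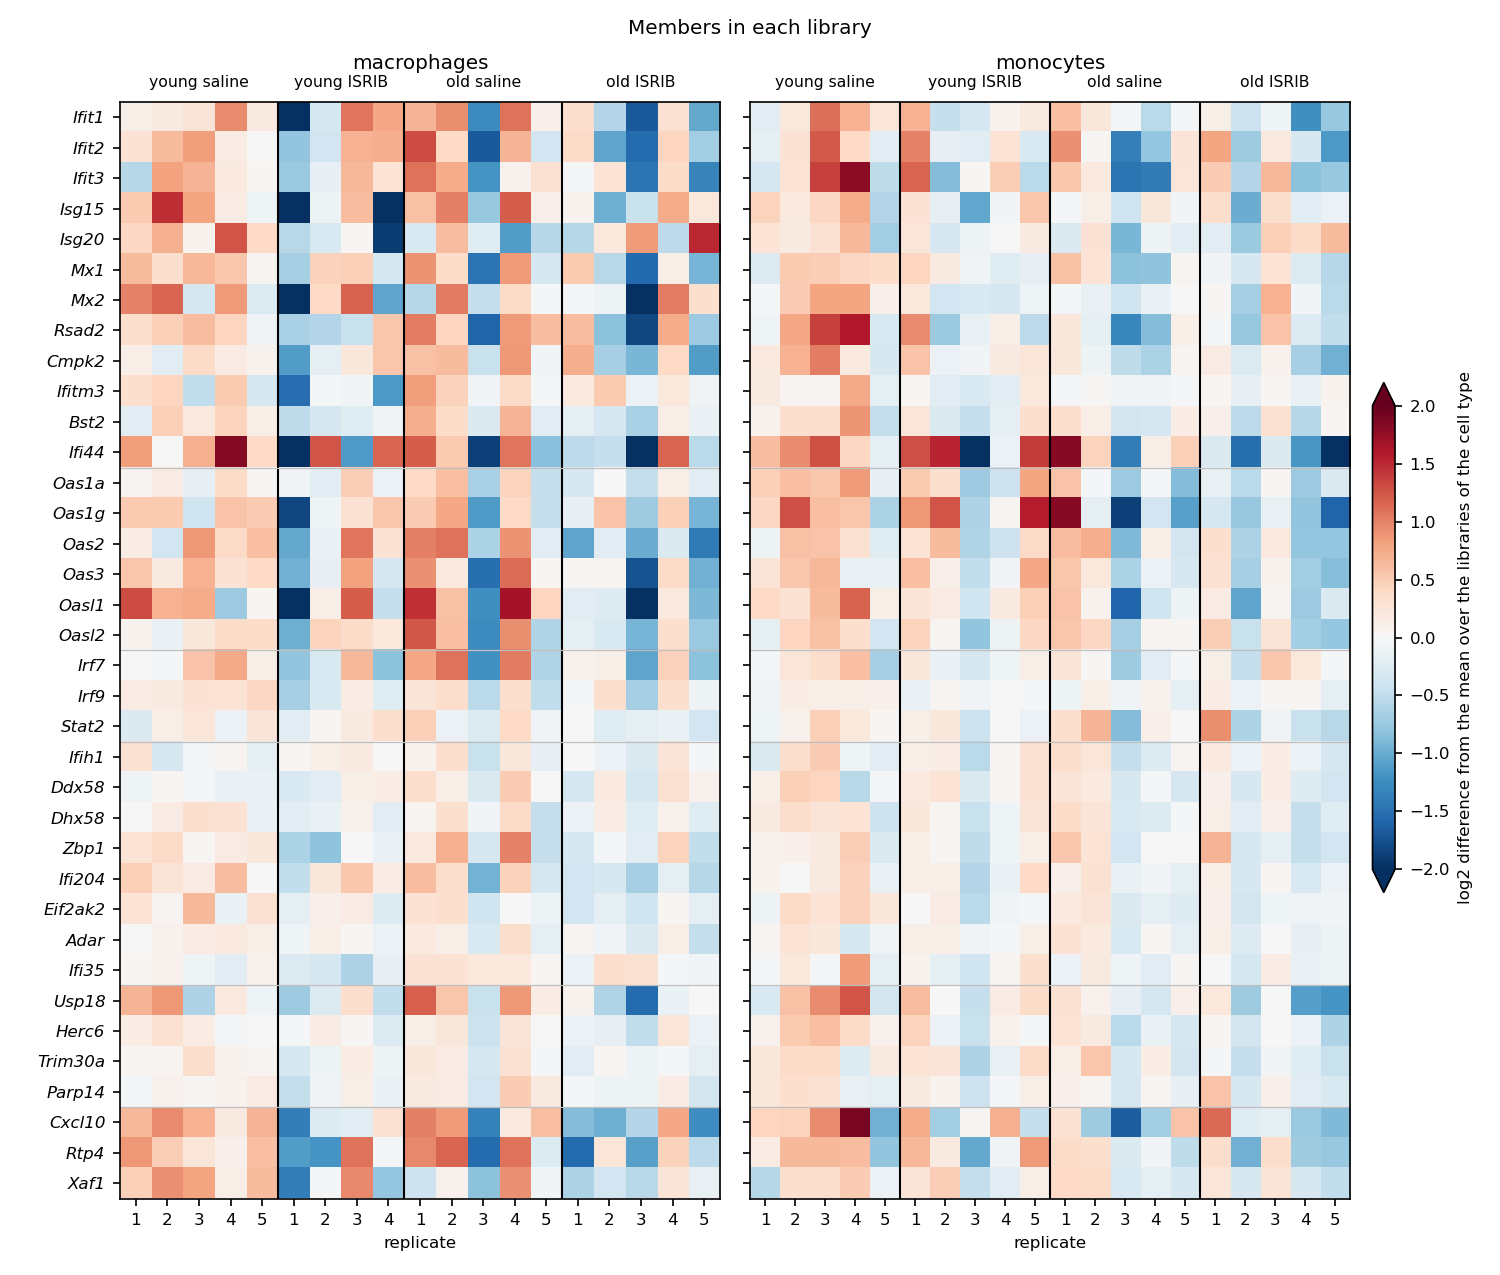
Log2 difference of each member (rows, ordered by role) from its mean over all libraries of the cell type, for every library (columns, by group and replicate), on a colour scale limited to -2 and 2. Most members are low in replicate 3 of old saline, replicate 3 of old ISRIB and replicate 1 of young ISRIB macrophages.

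Markers moved with some of these libraries. The summed level of 12 alveolar macrophage genes was highest in replicate 3 of both old macrophage groups (13444 CPM in saline and 18949 CPM in ISRIB), where the members were low. In young ISRIB macrophages it was also highest in replicate 3 (12307 CPM), where 33 of 36 members were above the group mean. Its group medians were 8935 CPM in young saline, 10858 CPM in young ISRIB, 11629 CPM in old saline and 16526 CPM in old ISRIB macrophages. The sum of 8 nonclassical monocyte genes had medians of 618, 492, 430 and 345 CPM in the same order, and that of 10 B cell genes 174, 225, 257 and 355 CPM. The sum of 12 T and NK cell genes was higher with ISRIB at both ages by its medians, 46.1 CPM in young saline and 92.8 CPM in young ISRIB, 64.8 CPM in old saline and 145 CPM in old ISRIB macrophages. It was highest in replicate 3 of both old groups and replicate 1 of young ISRIB, the 3 macrophage libraries named above as low for the members. For 12 genes of plasmacytoid dendritic cells, the cells known for high interferon output, the range over all libraries was 212 to 344 CPM. Their defining marker Siglech reached at most 5.00 CPM. The part of these markers in the comparisons of macrophage groups below was not tested.

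ISRIB was compared with saline in macrophages to ask whether the drug alters these cells in the injured lung. Averaged over both ages, 35 of 36 members had a lower estimate with ISRIB, with a median of -0.43 on the log2 scale (0.742 times saline), against a median of -0.00 and 50.8% of estimates below 0 over all genes. No member was called, while 0.83% of all genes were. At an unadjusted p under 0.05 there were 15 members, all lower, beside 16.6% of all genes. The same group means in CPM put the lowest level of all 36 members in an ISRIB group, 22 in old ISRIB and 14 in young ISRIB. Of 11651 genes averaging at least 1 CPM in macrophages, 51.7% had their lowest mean in an ISRIB group.

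Bst2 came closest to being called, at -0.52 ± 0.13 (SE; adjusted p = 0.051). Young saline macrophages had 57.2, 92.4, 76.8, 91.1 and 74.7 CPM and young ISRIB macrophages 47, 50.3, 57.4 and 62.5 CPM. Old saline macrophages had 106, 84.7, 55.2, 101 and 56.9 CPM and old ISRIB macrophages 59, 53.4, 43.6, 69.8 and 58.4 CPM. The ISRIB libraries were at or under 69.8 CPM and the saline libraries ranged up to 106 CPM, with overlap at both ages. The call depended on the analysis: DESeq2 called Bst2 (adjusted p = 0.00824), as did edgeR without a filter on low counts (adjusted p = 2.51e-05), whereas limma voom did not (adjusted p = 0.0603). Leaving out single libraries moved its adjusted p between 0.0135, without replicate 3 of old saline, and 0.134, without replicate 1 of young ISRIB.

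The next members by p-value were Cxcl10, Oas2 and Zbp1. Cxcl10, the ligand that draws CXCR3-bearing T cells, gave 6.59, 8.15, 6.93, 4.79 and 6.91 CPM in young saline and 1.45, 3.25, 3.57 and 5.04 CPM in young ISRIB macrophages, and 8.26, 7.57, 1.5, 4.49 and 6.31 CPM in old saline and 2.17, 2.02, 2.75, 6.94 and 1.55 CPM in old ISRIB macrophages. Its log2 fold change was -0.94 ± 0.32 (SE; adjusted p = 0.127). Oas2 was at -0.75 ± 0.26 (adjusted p = 0.127) and Zbp1 at -0.50 ± 0.18 (adjusted p = 0.137), both SE. Eif2ak2, the PKR gene, was at -0.28 ± 0.11 (SE; adjusted p = 0.176). By role, the medians were -0.47 for effectors, -0.49 for oligoadenylate synthetases, -0.27 for transcription factors, -0.21 for sensors, -0.20 for the ubiquitin and ADP-ribose group and -0.70 for Cxcl10, Rtp4 and Xaf1. Ifih1 had the only estimate above 0 (0.03 ± 0.10).

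Without the filter on low counts edgeR called 9 members, among 640 genes. Leaving out 1 library gave 0 to 3 members called, with 3 without replicate 3 of young ISRIB, and 2 without replicate 3 of old saline and without replicate 4 of old ISRIB. The share of all genes called in those fits is not given here, so these counts have no background beside them.

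In old macrophages alone, 0 members were called, and of all genes 0% were. At an unadjusted p under 0.05 there were 7 members, all lower, beside 9.14% of all genes. Oas2 had the smallest p-value. Old saline macrophages had 27.4, 29.7, 9.12, 25 and 12 CPM of Oas2 and old ISRIB macrophages 6.73, 12.1, 7.12, 11 and 4.91 CPM, a log2 fold change of -1.33 ± 0.36 (SE; adjusted p = 0.229). Replicates 3 and 5 of the saline group lay within the ISRIB range. Bst2 was at -0.53 ± 0.18 (SE; adjusted p = 0.369), Usp18 at -0.94 ± 0.36 (SE; adjusted p = 0.455) and Ifi204 at -0.54 ± 0.21 (SE; adjusted p = 0.462). For Usp18 the libraries gave 12.1, 7.91, 3.95, 9.52 and 5.91 CPM with saline and 5.69, 3.54, 1.75, 4.67 and 5.17 CPM with ISRIB, and for Ifi204 87.2, 73.9, 31, 76.9 and 45.6 CPM and 45.4, 48.2, 38.1, 50.1 and 38.1 CPM, with overlap in each. Isg20 alone had an estimate above 0. The median over the members was -0.46, and it ran from -0.59 to -0.31 over 17 alternative fits.

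In young macrophages 0 members were called, again with 0% of all genes, and 8 had an unadjusted p under 0.05, all lower, beside 12.4% of all genes. The median was -0.37, and -0.16 without replicate 1 of young ISRIB. Bst2 was at -0.51 ± 0.19 (SE; adjusted p = 0.263). Irf9 gave 46.5, 47.1, 51.4, 50.8 and 56.6 CPM with saline and 26.4, 32.3, 47.4 and 34.4 CPM with ISRIB, a change of -0.51 ± 0.20 (SE; adjusted p = 0.29). Ifi35, which dimerises with NMI, gave 23.9, 24.8, 22.1, 20.3 and 25.2 CPM and 19.3, 17.5, 15.4 and 20.2 CPM, a change of -0.33 ± 0.14 (SE; adjusted p = 0.313). For Ifi35, Isg20 and Zbp1 every ISRIB library was below every saline library, which held for 3 of 36 members and for 2.1% of all genes, while for Irf9 replicate 3 of ISRIB was inside the saline range. Ifitm3 gave 15.2, 16.4, 8.6, 17.6 and 9.65 CPM with saline and 4.05, 11.3, 11.8 and 5.2 CPM with ISRIB, overlapping, at -0.71 ± 0.29 (SE; adjusted p = 0.319).

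The ISRIB effect was not shown to differ between the ages. The test of the difference called 0 members and 0% of all genes, and 2 members had an unadjusted p under 0.05 beside 5.1% of all genes. They were Isg20, with a difference (old minus young) of 2.08 ± 0.80 (SE; adjusted p = 0.954), and Oas2, at -1.16 ± 0.51 (SE; adjusted p = 0.954). Isg20 was low in all 4 groups, at 2.47, 3.1, 1.91, 4.64 and 2.49 CPM in young saline, 1.16, 1.35, 1.87 and 0.306 CPM in young ISRIB, 1.36, 2.83, 1.5, 0.661 and 1.12 CPM in old saline and 1.14, 2.15, 3.5, 1.14 and 5.3 CPM in old ISRIB macrophages. Irf9 and Stat2 followed, with differences of 0.48 ± 0.27 (adjusted p = 0.959) and -0.34 ± 0.20 (adjusted p = 0.959).

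**Figure D4:**
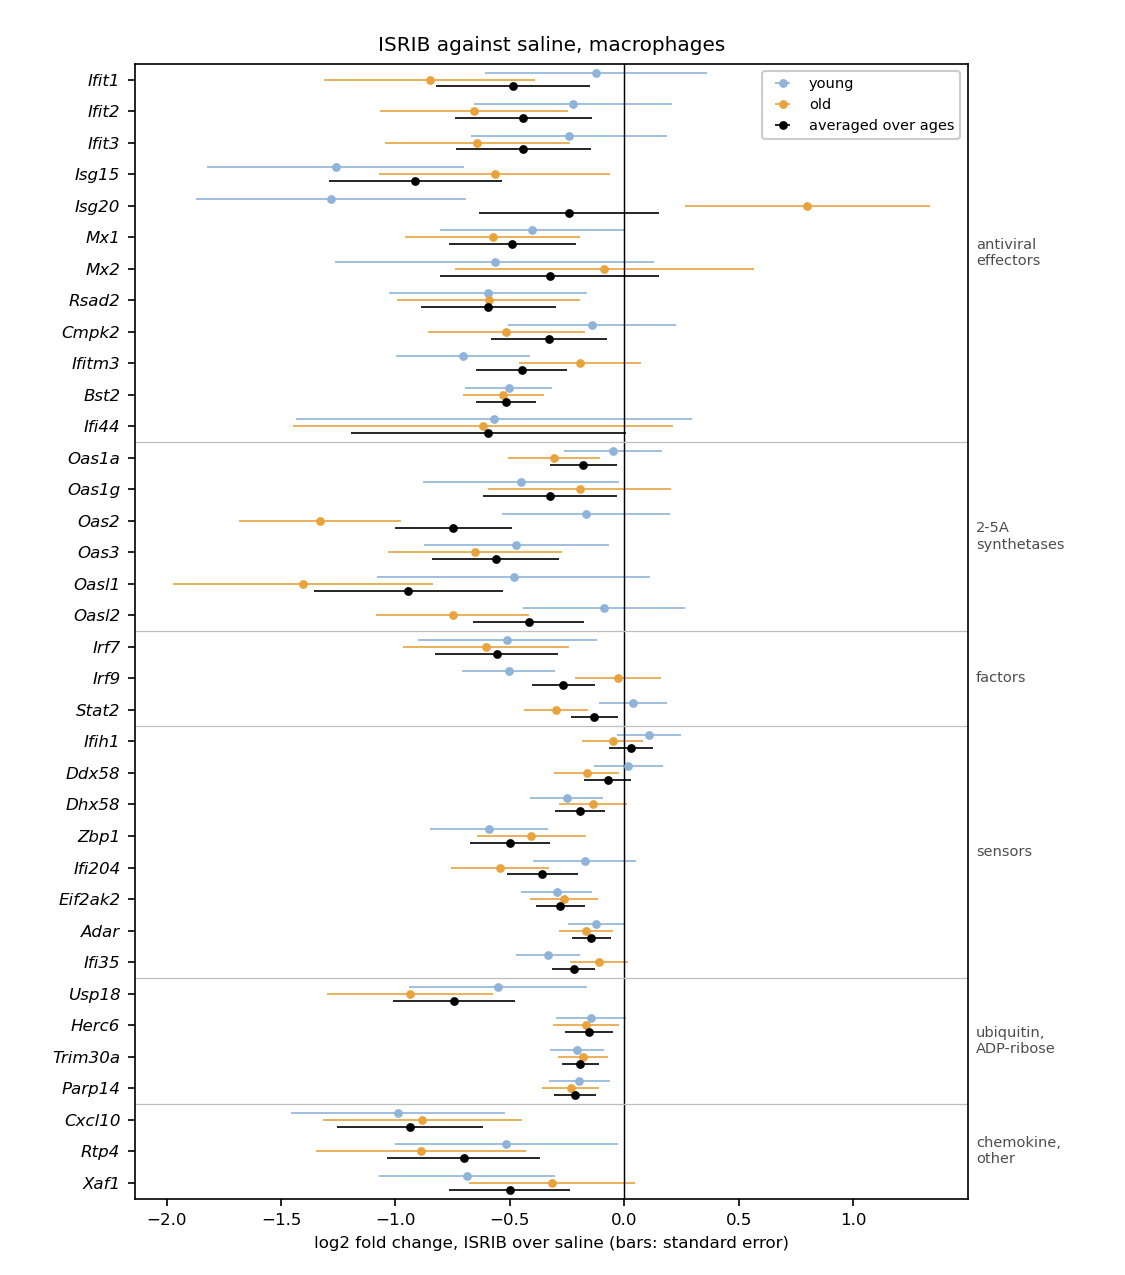
Log2 fold change of ISRIB over saline in macrophages for each member, in young mice (blue), old mice (orange) and averaged over ages (black), with bars for the SE. Of the averaged estimates 35 lie below 0, Isg20 is on opposite sides of 0 at the 2 ages, and Oas2 is lower in old mice.

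The other genes of the pathway gave a mixed picture with ISRIB in macrophages, averaged over ages. Of 10 receptor and signalling genes, Socs3, a feedback inhibitor of cytokine receptors, was called lower (-0.42 ± 0.10 (SE; adjusted p = 0.0429)), and none was higher. Of 14 sensors and activators, Tlr7 was called higher (0.48 ± 0.08 (SE; adjusted p = 0.0092)) and none lower. On the wider list of interferon-stimulated genes 0 of 68 were called, 50 were below 0 and the median was -0.13. Of 17 genes that answer mainly to interferon gamma, Ciita, the switch for MHC class II, and Irf1 were called lower (-0.73 ± 0.15 (SE; adjusted p = 0.0293) and -0.53 ± 0.11 (SE; adjusted p = 0.0324)), and 16 were below 0 (median -0.24).

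Age was compared in macrophages to ask how cells from old injured lungs differ. Averaged over saline and ISRIB, 1 member was called, Ifi35, and it was higher in old mice; 4.86% of all genes were called. Ifi35 was at 0.34 ± 0.09 (SE; adjusted p = 0.0351). Its libraries gave 23.9, 24.8, 22.1, 20.3 and 25.2 CPM in young saline and 27.4, 28.2, 27.6, 25.4 and 23.7 CPM in old saline macrophages, and 19.3, 17.5, 15.4 and 20.2 CPM in young ISRIB and 21.7, 29.98, 29.5, 22.1 and 21.5 CPM in old ISRIB macrophages. Saline libraries overlapped between the ages, and ISRIB libraries did not, a separation upward in old mice that 2.86% of all genes had. The call was lost with limma voom (adjusted p = 0.0510), without the filter on low counts (adjusted p = 0.0872), in a fit of all 39 libraries (adjusted p = 0.0902) and without any 1 of 8 libraries: replicate 3 or 4 of young saline, 2 or 3 of young ISRIB, 1 or 3 of old saline, and 2 or 3 of old ISRIB (adjusted p up to 0.0882). An antisense gene overlaps 16.8% of its exons. At an unadjusted p under 0.05 there were 3 members, beside 17.8% of all genes, the others being Ifitm3 at 0.48 ± 0.20 (SE; adjusted p = 0.186) and Ifi204 at -0.37 ± 0.16 (SE; adjusted p = 0.188). Of 36 estimates 23 were below 0, with a median of -0.08. Leaving out single libraries moved that median from -0.12, without replicate 4 of old ISRIB, to 0.02, without replicate 3 of young ISRIB, so its sign was not stable.

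With saline alone, 0 members were called, 1.16% of all genes were, and 0 members had an unadjusted p under 0.05 beside 12.7% of all genes. DESeq2 also gave 0 at that limit and limma voom 1. The median was 0.05. Leaving out single libraries moved it from -0.09, without replicate 4 of old saline, to 0.19, without replicate 3 of old saline, and it was -0.10 with limma voom. The smallest p-values were those of Ifi35 (0.23 ± 0.13 (SE; adjusted p = 0.491)) and Isg20 (-0.92 ± 0.53 (SE; adjusted p = 0.508)), both not called. With ISRIB alone, 0 members and 0.937% of all genes were called, and 4 members had an unadjusted p under 0.05, beside 12.2% of all genes. These were Ifi35 (0.45 ± 0.14 (SE; adjusted p = 0.124)) and Ifitm3 (0.73 ± 0.29 (SE; adjusted p = 0.276)) with higher estimates in old mice, and Oas2 (-0.97 ± 0.38 (SE; adjusted p = 0.255)) and Ifi204 (-0.56 ± 0.23 (SE; adjusted p = 0.285)) with lower ones. For Ifitm3 the young ISRIB libraries gave 4.05, 11.3, 11.8 and 5.2 CPM and the old 14, 17.7, 11.4, 13.4 and 11 CPM. Without the filter on low counts 2 members were called there. Comparisons with the same control groups share libraries, so the values for each are set side by side and not compared. In the pathway lists, averaged over treatments, Irf5 was called lower in old mice (-0.30 ± 0.08 (SE; adjusted p = 0.0258)), and Cd274, Ifi27 and Ms4a4b were called higher, at 0.42 ± 0.08, 0.34 ± 0.09 and 1.51 ± 0.44 (SE).

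In monocytes of naive mice the members leaned lower with age, and none passed the test. Averaged over treatments, all 36 estimates were below 0, with a median of -0.21 (0.863 times young), against 48.8% of estimates below 0 and a median of 0.00 over all genes. Of all genes 0.123% were called. At an unadjusted p under 0.05 there were 10 members, all lower, beside 8.24% of all genes. The medians by role were -0.49 for the oligoadenylate synthetases, -0.41 for Cxcl10, Rtp4 and Xaf1, -0.31 for effectors, -0.27 for the ubiquitin and ADP-ribose group, -0.13 for sensors and -0.05 for transcription factors.

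Cmpk2 had the smallest p-value, with 75.4, 114, 145, 81.2 and 57.2 CPM in young saline, 86.6, 66.8, 50.3, 45.8 and 74.3 CPM in old saline, 105, 67.4, 69.95, 83 and 80.7 CPM in young ISRIB and 80.6, 59.9, 73.9, 44 and 33.9 CPM in old ISRIB monocytes. The ages overlapped under both treatments, and the change was -0.52 ± 0.17 (SE; adjusted p = 0.324). Oas1a was at -0.57 ± 0.19 (SE; adjusted p = 0.374), Usp18 at -0.59 ± 0.21 (SE; adjusted p = 0.405) and Oasl1 at -0.59 ± 0.21 (SE; adjusted p = 0.413). Young saline monocytes had 86.2 ± 20.6 CPM of Oas1a and old saline monocytes 57.6 ± 24.4 CPM (SD, n = 5 each). Usp18 was 46.6 ± 22.7 and 32.4 ± 5.98 CPM in the same groups (SD, n = 5), and Oasl1 22.7 ± 7.38 and 14.2 ± 6.8 CPM (SD, n = 5). The wider list had 58 of 71 genes below 0 (median -0.13), whereas 3 of 17 genes answering mainly to interferon gamma were below 0 (median 0.17). None on either list was called. In old ISRIB monocytes the gamma list summed to 3691 CPM in replicate 1, against a group median of 1416 CPM. The other group medians were 1833 CPM in young saline, 1900 CPM in old saline and 1615 CPM in young ISRIB monocytes. The part of that library in the estimates of this list was not tested.

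With saline alone, 0 members were called, beside 3 genes or 0.0247%, and 8 members had an unadjusted p under 0.05, all lower, beside 8.81% of all genes. Rsad2 gave 50.5, 98.9, 150.2, 176 and 47 CPM in young and 70.2, 50.9, 23.6, 31.6 and 63 CPM in old monocytes, a change of -1.16 ± 0.37 (SE; adjusted p = 0.307). The old libraries were all under the upper 3 young ones. Mx2 gave 24.2, 37.8, 46.4, 46.1 and 28.8 CPM and 27.2, 24.3, 20.4, 24.3 and 27.2 CPM (-0.60 ± 0.22 (SE; adjusted p = 0.39)). Cmpk2 was at -0.59 ± 0.23 (SE; adjusted p = 0.432) and Herc6 at -0.43 ± 0.17 (SE; adjusted p = 0.441). All 36 estimates were below 0 (median -0.28). Replicate 4 of young saline monocytes had the lowest total of all libraries and the highest value of its group for 16 of 36 members, Rsad2 among them, and for 32.5% of all genes. Without it the median over the members was -0.24, and without replicate 3 of old saline it was -0.19.

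With ISRIB alone, 0 members and 0% of all genes were called, and 4 members had an unadjusted p under 0.05, all lower in old mice, beside 6.6% of all genes. Ifi44 gave 4.15, 5.12, 0.109, 1.47 and 4.36 CPM in young and 1.26, 0.415, 1.21, 0.562 and 0 CPM in old ISRIB monocytes (-2.09 ± 0.75 (SE; adjusted p = 0.59)), near its detection limit. Oas1g gave 10.5, 14.4, 3.7, 6.1 and 16.7 CPM and 4.48, 3.32, 4.98, 3.15 and 1.59 CPM (-1.52 ± 0.55 (SE; adjusted p = 0.596)). For both genes the ages overlapped. Oas3 and Usp18 were at -0.55 ± 0.26 and -0.63 ± 0.30 (adjusted p = 0.755 and 0.755). The median was -0.18, with 30 of 36 below 0. It ran from -0.29, without replicate 1 of old ISRIB, to -0.08, without replicate 1 of young ISRIB.

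**Figure D5:**
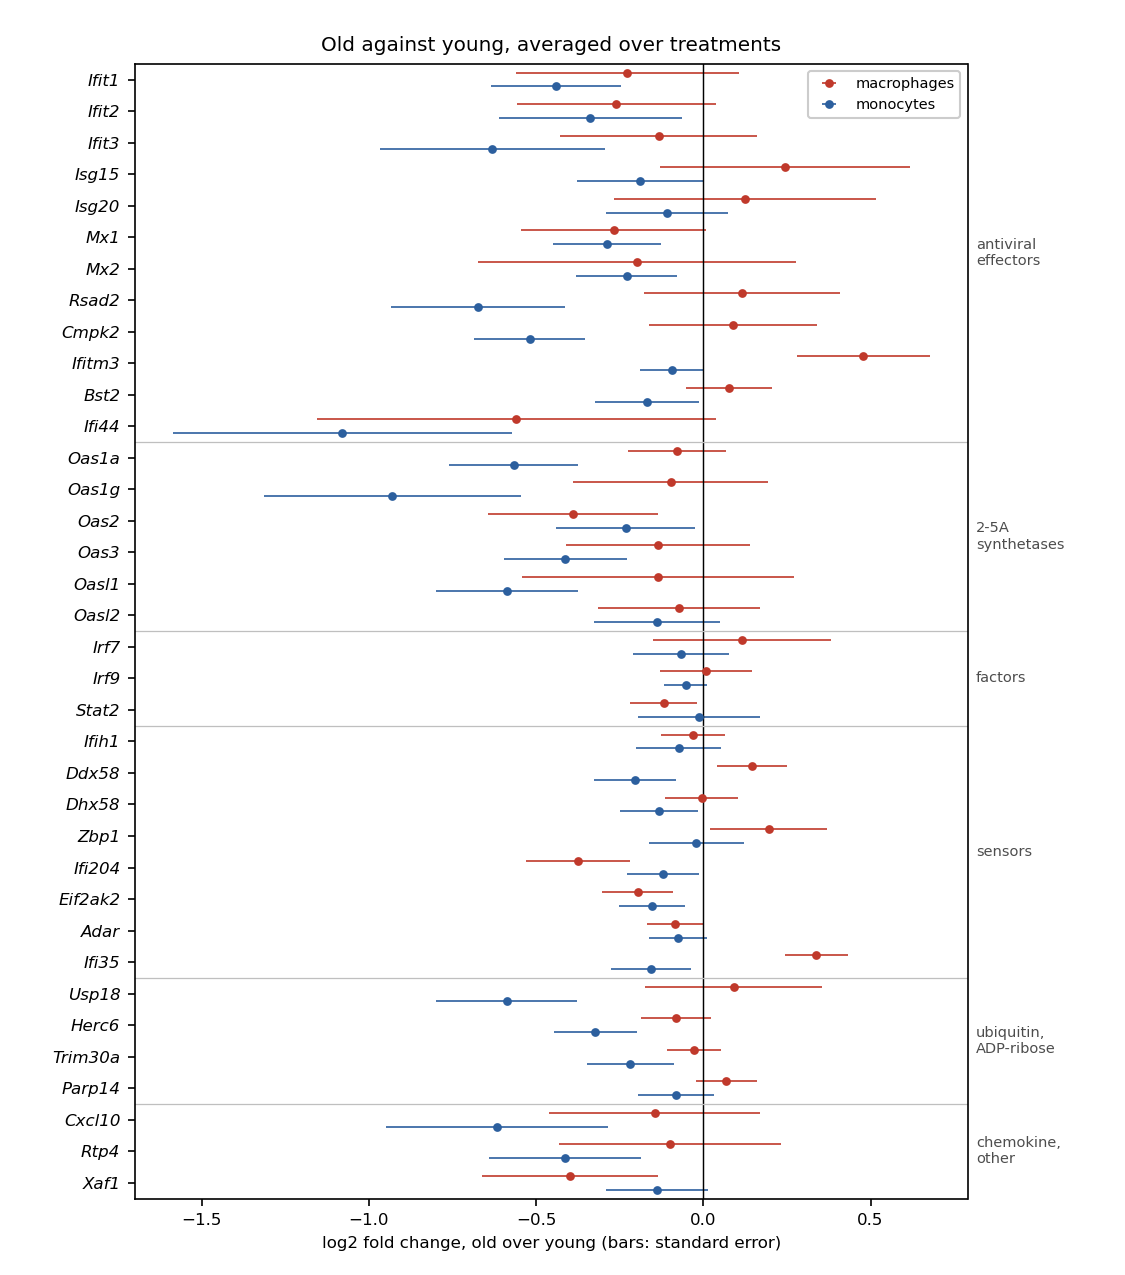
Log2 fold change of old over young, averaged over saline and ISRIB, for each member in macrophages (red) and monocytes (blue), with bars for the SE. All 36 monocyte estimates lie below 0, and macrophage estimates lie on both sides, with Ifi35 at 0.34 and Ifitm3 at 0.48.

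Whether age acted differently in the 2 cell types was tested among saline mice. It called 0 members and 0.25% of all genes, and 3 members had an unadjusted p under 0.05 beside 10.9% of all genes. The differences (macrophages minus monocytes) were 0.48 ± 0.20 (SE; adjusted p = 0.365) for Ifi35, 1.28 ± 0.58 (SE; adjusted p = 0.399) for Rsad2 and 0.88 ± 0.42 (SE; adjusted p = 0.439) for Cmpk2. The median difference was 0.29, and 6 of 36 were below 0. It was 0.15 with limma voom and 0.48 without replicate 3 of old saline macrophages. The age effect was therefore not shown to differ between the cell types for any member.

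ISRIB in monocytes of naive mice left all members uncalled. Averaged over ages, 0% of genes were called, and 1 member, Ifit1, had an unadjusted p under 0.05 beside 7.49% of all genes. Ifit1 gave 16.1, 23.4, 43.9, 33.1 and 24.4 CPM in young saline, 33.1, 15.1, 16.4, 21.9 and 22.2 CPM in young ISRIB, 32.2, 24.1, 19.95, 14 and 20.01 CPM in old saline and 22.2, 15.3, 18.7, 8.43 and 11.1 CPM in old ISRIB monocytes, overlapping at both ages, with a change of -0.44 ± 0.19 (SE; adjusted p = 0.638). Of 36 estimates 34 were below 0 (median -0.18, and -0.12 without replicate 1 of old saline), the exceptions being Irf7 and Isg20. Usp18, Eif2ak2 and Herc6 came next, at -0.42 ± 0.21, -0.20 ± 0.10 and -0.22 ± 0.12 (SE; adjusted p = 0.679, 0.679 and 0.696).

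In old monocytes, 0% of all genes were called, and Ifi44 was the only member with an unadjusted p under 0.05 (-1.85 ± 0.75 (SE; adjusted p = 0.573)), beside 7.54% of all genes. In young monocytes 0% were called as well, and 4 members had an unadjusted p under 0.05, all lower, beside 6.65% of all genes. They were Mx2 (-0.63 ± 0.22 (SE; adjusted p = 0.689)), Eif2ak2 (-0.34 ± 0.14 (SE; adjusted p = 0.703)), Ifitm3 (-0.29 ± 0.14 (SE; adjusted p = 0.74)) and Rsad2 (-0.79 ± 0.37 (SE; adjusted p = 0.74)). Mx2 gave 24.2, 37.8, 46.4, 46.1 and 28.8 CPM with saline and 31, 21, 22, 21.3 and 24.2 CPM with ISRIB, and Eif2ak2 gave 95.6, 143, 134, 152 and 129 CPM and 109, 127, 77.2, 107 and 105 CPM, with overlap in each. The median over the members was -0.11 in old monocytes, and ran from -0.21, without replicate 1 of old ISRIB, to -0.0089, without replicate 1 of old saline. In young monocytes it was -0.19, and ran from -0.29, without replicate 5 of young saline, to -0.11, without replicate 3 of young ISRIB. The test of the difference between the ages called 0 members and 0% of all genes, and Mx2 was the only member with an unadjusted p under 0.05 (0.74 ± 0.30 (SE; adjusted p = 0.661)), beside 7.11% of all genes.

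Set in order of mean CPM, 29 of 36 members were highest in young saline monocytes within that cell type, 5 in young ISRIB and 2 in old saline, and 28 were lowest in old ISRIB. Of 11713 genes averaging at least 1 CPM in monocytes, 23.9% were highest in young saline and 31.9% were lowest in old ISRIB. In macrophages 17 members were highest in young saline and 17 in old saline, beside 34% and 15.1% of 11651 genes. The remaining 2 were highest in young ISRIB. For most members these neighbouring groups overlapped, as the values above show.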

How the data were processed

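Poly(A)-selected RNA libraries made from 3 ng of total RNA were sequenced by the authors. Per the submitters' processing notes, bcl2fastq 2.19.1, FastQC, Trimmomatic 0.36, STAR 2.6.0, HTSeq 0.11.2 and build mm10 were used. For settings, annotation and the strand option of the counting: not given in the sources used here. The deposited values are raw counts, with 1 row for each Ensembl gene and no scaling or filter applied. Gene symbols and positions were taken from GENCODE vM21 (GRCm38), and promoter windows from RefSeq GRCm38.p6, with 9 of 36 members lacking one.

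Counts were tested with edgeR 4.0.16 in R 4.3.3 (quasi-likelihood test, TMM scaling, filterByExpr with minimum count 10 and minimum total 15, Benjamini-Hochberg adjustment). The 19 macrophage and 20 monocyte libraries were fitted separately (12171 and 12170 genes), and comparisons across cell types used all 39 (13587 genes). Every group had its own mean and there was no covariate. All 36 members passed the filter in each fit. CPM were counts over the library total, and deviations used log2 CPM with a prior count of 2. The fits were tested on simulated data. Alternatives were DESeq2 1.42.0, limma voom 3.58.1, other size factors, no filter, a replicate block, other sets of libraries and leaving out each library.

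The members, the pathway and marker lists and the tests were chosen with earlier results of these data known. All members were open to naming. Values in each library were given for called members, up to 8 per comparison by p-value. Where none was called, they were given for some of the 4 members with the smallest p-values. Outside this rule, the comparison of cell types also gave young saline libraries for Bst2, Oas1a, Oas1g and Eif2ak2. Of the wider lists up to 4 called genes per comparison were named, and pathway genes whatever their values.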

Additional observations from a re-analysis of the deposited data

Results flagged for a closer look

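Single libraries stood apart from the rest of their group in 10 of 296 groups of values (36 members and their mean in 8 groups), where Dixon's test on log2 CPM at 95% would mark about 14.8 by chance. In macrophages, Ifit1 was highest in replicate 4 of young saline at 15.7 CPM, against 8.57 to 9.56 CPM in the others. Oas1g was lowest in replicate 3 of young saline at 4.78 CPM (others 9.18 to 9.58 CPM), and Trim30a highest in the same library at 115 CPM (others 92.6 to 95.6 CPM). Rsad2 was lowest in replicate 3 of old saline at 4.23 CPM (others 17.5 to 25.8 CPM), the library in which 34 of 36 members were below the group mean. Oasl2 was lowest in replicate 1 of young ISRIB at 15.1 CPM (others 33.9 to 39.5 CPM). The mean over the members was lowest in replicate 5 of young saline at 0.155 on the log2 scale, close to the others at 0.285 to 0.338.

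In monocytes, replicate 1 of young saline was lowest for Mx1 at 83.9 CPM (others 142 to 157 CPM) and for Irf9 at 133 CPM (others 162 to 166 CPM). Dhx58 was lowest in replicate 5 of young saline at 70.3 CPM (others 97.8 to 118 CPM). Zbp1 was highest in replicate 1 of old ISRIB at 223 CPM (others 97.9 to 118 CPM).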

How the results depend on the processing

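The 33 members called lower in macrophages than in monocytes numbered 33 with DESeq2, limma voom, DESeq2-style size factors, no filter, the replicate block and each library left out. Over all comparisons, 320 of 342 alternative counts of called members were equal to the reported count or within 1.5 times of it. The reported count was 0 except between cell types and for age averaged over treatments in macrophages. Most of the agreement is therefore a count of 0 that stayed at 0. For ISRIB averaged over ages in macrophages, the count of 0 became 9 with no filter, 1 with DESeq2, 1 with library totals in place of TMM (added after seeing the data), and 0 to 3 with single libraries left out. With no filter the counts were 4 for ISRIB in old macrophages, 1 for ISRIB in young macrophages and 2 for age in ISRIB macrophages. For age averaged over treatments in macrophages the count of 1 became 0 with limma voom, 0 in a fit of all 39 libraries, and 0 to 1 with single libraries left out; with no filter it was 1, although Ifi35 was not called. With library totals for ISRIB averaged over ages in macrophages, 70 of 12171 genes were called. For most other settings the share of all genes called is not given here, so the counts of members have no background beside them. The causes were not tested.

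Of 2183 alternative log2 fold changes of named members, 2141 kept direction and call, 20 passed the threshold newly, 16 no longer passed, and 6 turned, none of them called. With single libraries left out, Oas1g under ISRIB in old monocytes ran from -1.18 to 0.093 (without replicate 1 of old saline). Between cell types, Ifi44 ran from -0.42 to 0.078 (without replicate 1 of old saline monocytes) and Oas1g from -0.023 (without replicate 3 of old saline monocytes) to 0.61, with -0.0032 without replicate 2 of old saline macrophages. In ISRIB mice Ifi44 was 0.023 and Bst2 -0.12. No alternative moved the median of all genes by over 0.1.

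Same-numbered libraries share only a number: the correlation of their deviations had a median of 0.004 in macrophages (27 pairs, -0.15 to 0.17) and -0.014 in monocytes (30 pairs, -0.19 to 0.24). With the replicate block the called members numbered 1 for ISRIB averaged over ages in macrophages (Bst2, adjusted p = 0.0259) and 0 for age averaged over treatments (Ifi35, adjusted p = 0.0570), and the block left the other counts of members as they were. Depth limits Ifi44, Isg15, Isg20, Mx2 and Oasl1 most, each with libraries under 1 CPM.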
